A study of Homo sapiens with 2 samples.

Results

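S phase tumour cells were described in a single pooled library of OVCAR5, a human ovarian carcinoma line grown as tumours in mice. Cells were kept if 1000 or more genes were detected and mitochondrial counts did not exceed 20%. Of these 3538 kept cells, 156 (4.41%, exact 95% binomial interval 3.76 to 5.14) were chosen by a rule on 17 genes. Each held at least 8 summed unique molecular identifiers (UMIs, which count captured RNA molecules) of 9 S phase genes, PCNA, MCM2 to MCM7, TYMS and RRM2. Each also held fewer than 10 summed UMIs of 8 genes of G2 and mitosis, MKI67, TOP2A, CCNB1, AURKB, CENPF, BIRC5, TPX2 and UBE2C. They were compared with the 3161 kept cells under both limits and, in fewer places, with the 221 cells at or over the G2/M limit, of which 177 met both limits and 44 the G2/M limit only. Because the members were selected on these counts in this library, every comparison of genes is a description with no test, and p-values were not computed.

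The OVCAR5 cells held an interferon gamma (IFN-gamma) sensing reporter and were sorted as CFP+, which the labels call bystander tumour cells. Tumours came from NSG-b2m-/- mice, and their cells were dissociated and exposed to cytokines outside the animal for 6 h. The labels list 15 entries, 5 unstimulated, 5 with 10 ng/ml TNFa, and 5 with 100 ng/ml IFNy together with 10 ng/ml TNFa, in a pool of 5 tumours. All groups therefore shared the line, the reporter, the sort and the host strain. Hashtags, antibody-borne tags added before pooling, came in 15 pairs (hashed samples), and the labels tie no pair to a treatment or a tumour, so treatments were not compared. Gene expression and hashtag counts shared the same 5269 distinct barcodes.

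In S phase a cell copies its genome. Origins are licensed in G1 when ORC, CDC6 and CDT1 load the MCM2 to MCM7 helicase, then fired by CDC45 and GINS, and forks are run by DNA polymerases on the PCNA clamp. Many of these genes are under E2F transcription factors, which are held back by the retinoblastoma protein until cyclin-dependent kinases release them, and nucleotide synthesis and histone supply rise alongside.

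Sites of E2F type lie before the starts of several of these genes. Such a site was searched as TTTGGCGC, TTTCCCGC, TTTGCCGC or TTTCGCGC on both strands, in RefSeq promoters of GRCh38.p14 (250 bases before to 50 after the start). Below are 100-base windows that lie wholly before the start, chosen after the matches were seen to show genes that carry the site and were high in S phase cells, 5′ to 3′ in the direction of the gene, with the site in capitals. PCNA (chr20:5126628-5126727, minus strand), TYMS (chr18:657553-657652, plus strand) and MCM6 (chr2:135876476-135876575, minus strand) belong to the rule. CDT1 (chr16:88803689-88803788, plus strand), GINS2 (chr16:85688955-85689054, minus strand) and CDCA7 (chr2:173354761-173354860, plus strand) do not. MCM6 holds sites on both strands that overlap.
PCNA: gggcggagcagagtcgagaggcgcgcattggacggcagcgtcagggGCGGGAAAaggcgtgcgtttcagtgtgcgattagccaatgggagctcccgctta
TYMS: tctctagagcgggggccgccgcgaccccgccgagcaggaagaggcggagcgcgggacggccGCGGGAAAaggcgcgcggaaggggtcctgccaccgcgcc
MCM6: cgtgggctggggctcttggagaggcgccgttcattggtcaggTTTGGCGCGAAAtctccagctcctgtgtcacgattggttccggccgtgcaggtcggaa
CDT1: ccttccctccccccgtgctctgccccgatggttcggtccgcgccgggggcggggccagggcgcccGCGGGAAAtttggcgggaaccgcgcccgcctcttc
GINS2: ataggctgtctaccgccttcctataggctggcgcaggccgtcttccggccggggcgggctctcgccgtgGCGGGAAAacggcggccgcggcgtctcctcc
CDCA7: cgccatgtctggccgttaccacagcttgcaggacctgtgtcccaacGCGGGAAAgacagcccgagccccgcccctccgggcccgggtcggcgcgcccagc

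Such a site was found in 908 of all 27305 promoters (3.33%) and in 411 of the 7408 promoters matched to tested genes (5.55%). Among genes called higher in S phase cells it was in 46 of 386 matched promoters (11.9%), and among those at least 2-fold higher in 19 of 85 (22.4%). Genes called lower held it in 5 of 179 (2.79%). By role, it was in 6 of 14 matched genes of origin licensing and firing, 7 of 24 of the replication fork, 5 of 14 of chromatin assembly and 6 of 15 G1/S regulators. It was in 4 of 18 checkpoint and repair genes, 5 of 20 replication histones and 3 of 17 type I interferon genes. No match was found in the 15 matched genes of nucleotide supply or in the 17 of the IFN-gamma response. A match describes the letters in the window and is not evidence of a bound site.

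The sums that chose the cells spread widely (plot of kept cells by the 2 sums). Members had a median of 11 S phase UMIs, with a maximum of 34, and a median of 1 G2/M UMI. Of the 156, 46 (29.5%) had 0 G2/M UMIs and 106 (67.9%) had at most 2. In the comparison cells the median S phase sum was 1, and 45.7% had 0. Cells with at least 8 S phase UMIs numbered 333, of which 53.2% were over the G2/M limit and so were not members. Just outside the lower limit, the 40 cells with 7 S phase UMIs held 2.51 UMIs per 10000 of the licensing and firing genes, which the rule did not use, against 2.30 in the 25 members with 8, with overlapping counting intervals of 2.14 to 2.93 and 1.84 to 2.83. Licensing levels on either side of the S phase limit were thus not told apart. At the G2/M limit, the 15 members with 7 to 9 G2/M UMIs held 15.5 UMIs per 10000 of G2 and mitosis genes outside the rule, and the 5 cells with 10 to 12 held 22.4.

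**Figure D1:**
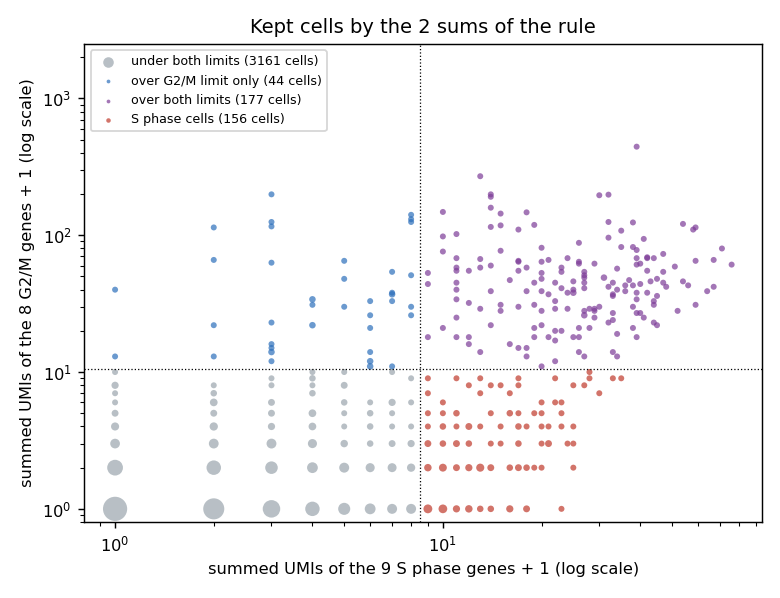
Kept cells by their summed UMIs of the 9 S phase genes (x axis) and the 8 G2/M genes (y axis), both plus 1 on log scales, with dot area growing with the number of cells. The dotted lines are the limits of the rule, and the 156 S phase cells form the lower right block, with most of them at 0 to 2 G2/M UMIs.

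Members were deeper than the comparison cells, with a median of 16508.5 UMIs and 4066 genes against 11137 UMIs and 3156 genes. Median mitochondrial share was 12.5% against 13.1%. No clear hashtag pair was found in 20 members (12.8%), all of which had at least 10 counts of another tag beyond the top 2, against 10.6% of the comparison cells. Over the 99th percentile of UMIs lay 6 members (3.85%) and 0.443% of the comparison cells. Cells without a pair were left out of every fold except those from a single pooled ratio. With the deepest 1% of cells left out, 132 of the 135 genes followed across settings kept their direction and their call. All sorted cells were of a single line. The markers KRT18, KRT8, KRT7, KRT19 and EPCAM were detected in members at 34.3, 18.9, 7.13, 15.2 and 4.39 UMIs per 10000, and CLDN4 at 0.675. CDH1, which encodes E-cadherin, had 5 UMIs in members, 0.0230 per 10000 against 0.0297 in comparison cells. T or NK cell, B cell and erythroid markers were at 0 counts in members with a pair. Myeloid markers summed to 0.216 UMIs per 10000 in members and 0.224 in comparison cells, fibroblast markers to 0.0184 and 0.0239, and endothelial markers to 0.0184 and 0.0251.

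S phase cells made up 0% to 9.21% of the hashed samples, with a median of 3.40% over 15 (plot of the share in each hashed sample). HTO2+HTO5 was highest, with 28 of 304 cells (9.21%, exact binomial interval 6.21 to 13.0), followed by HTO4+HTO10 with 23 of 291 (7.90%, 5.08 to 11.6). Neither interval overlapped that of HTO2+HTO7, with 5 of 347 (1.44%, 0.469 to 3.33), nor that of HTO4+HTO6, with 1 of 155 (0.645%, 0.0163 to 3.54). HTO3+HTO8 gave 21 of 630 (3.33%) and HTO2+HTO6 gave 19 of 320 (5.94%), with intervals of 2.07 to 5.05 and 3.61 to 9.12 that overlap. HTO3+HTO7 gave 5 of 71 (7.04%), HTO2+HTO8 gave 8 of 145 (5.52%), HTO4+HTO7 gave 7 of 137 (5.11%) and HTO4+HTO8 gave 6 of 131 (4.58%). HTO2+HTO10 gave 5 of 147 (3.40%), HTO3+HTO6 gave 7 of 300 (2.33%) and HTO3+HTO9 gave 1 of 53 (1.89%). None was seen in HTO3+HTO5, where 3 counts of 49 cells allow up to 6.12%, or in HTO4+HTO9, where 3 of 64 allow up to 4.69%. The upper bounds of the exact binomial intervals for these 0 counts are 7.25% and 5.6%. Intervals and limits cover counting error only, and neighbours in this order have overlapping intervals.

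Median UMIs per cell lay between 10942 and 12405 over the hashed samples, with HTO4+HTO10 lowest and HTO2+HTO6 highest. After each cell was thinned to 5000 UMIs and the limits were lowered to 4 and 5 UMIs, 121 of 3269 cells (3.70%) met the rule, and the median over hashed samples was 3.42%. HTO4+HTO10 was then at 8.52% and HTO2+HTO5 at 7.17%, still above HTO2+HTO7 at 1.27%, while HTO4+HTO6 moved to 2.1%. Of the 154 members deep enough to thin, 84 were chosen again, so single members near the limit depend on depth.

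Cells over the G2/M limit made up 1.89% to 10.2% of the 15 hashed samples. HTO2+HTO5 held 28 S phase cells and 16 over the limit, HTO4+HTO10 held 23 and 16, and HTO2+HTO6 held 19 and 15. HTO2+HTO7 held 5 S phase cells and 18 over the limit, and HTO4+HTO6 held 1 and 9. In these 5, chosen after their values were seen, shares over the G2/M limit were 5.26%, 5.50%, 4.69%, 5.19% and 5.81%. Outside these 5, the share was 10.2% in HTO4+HTO7, 9.52% in HTO2+HTO10, 9.38% in HTO4+HTO9, which had no S phase cell, and 1.89% in HTO3+HTO9. No relation between the shares was tested.

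IFN-gamma response genes differed widely between the hashed samples and are given beside the shares. In order of falling S phase share, their summed level in the comparison cells was 8.91 UMIs per 10000 in HTO2+HTO5, 9.35 in HTO4+HTO10, 6.56 in HTO3+HTO7, 17.5 in HTO2+HTO6 and 6.34 in HTO2+HTO8. It was 6.02 in HTO4+HTO7, 14.1 in HTO4+HTO8, 17.3 in HTO2+HTO10, 17.2 in HTO3+HTO8 and 322 in HTO3+HTO6. It was 215 in HTO3+HTO9, 314 in HTO2+HTO7 and 285 in HTO4+HTO6, and in the hashed samples with no S phase cell it was 9.91 in HTO3+HTO5 and 303 in HTO4+HTO9. No groups were formed from these levels, and their part in the shares was not tested.

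**Figure D2:**
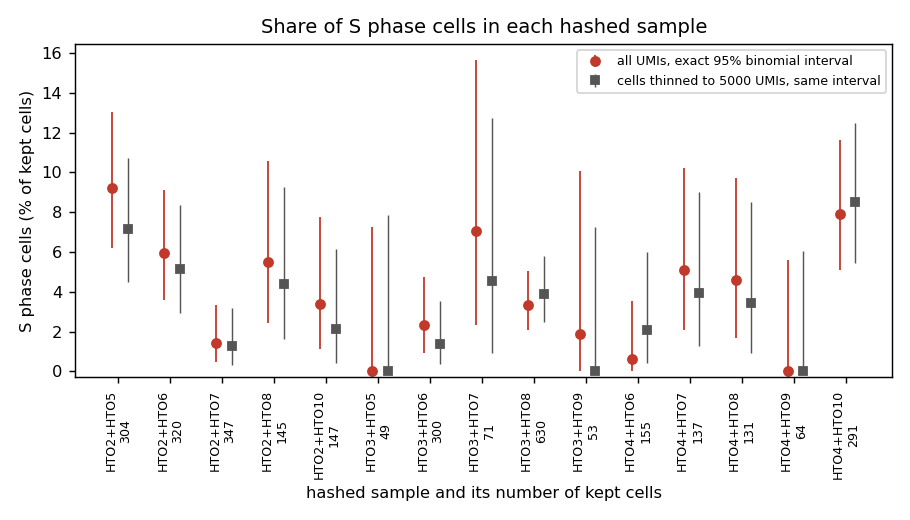
Share of S phase cells among kept cells (y axis, %) in each of the 15 hashed samples (x axis, with the number of cells), from all UMIs (circles) and after thinning to 5000 UMIs per cell (squares), with exact 95% binomial intervals. HTO2+HTO5 and HTO4+HTO10 lie highest by both measures, and HTO2+HTO7 stays near the bottom.

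For gene levels, summed UMIs of members and comparison cells were set against each other within each hashed sample and combined into a Mantel-Haenszel rate ratio (fold), which keeps differences between hashed samples out of the fold. Ranges cover the 11 hashed samples with at least 5 members, which hold 134 members. A gene was called at a fold of at least 1.5 with the 95% counting interval off 1, among 9290 tested genes with a mean of at least 0.05 UMIs per 10000, the rule genes left out. Higher calls numbered 503 (5.41%) and lower calls 229 (2.47%), and the median fold over tested genes was 1.02. Since the rule used this contrast, nothing is read from the calls of its close partners beyond their size. Many S phase genes lay below the level filter and are given by value only.

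The summed S phase genes that chose the cells were high in every hashed sample by construction, which does not hold for each gene. RRM2 and MCM2 were each higher in 10 of 11 hashed samples and lower in 1. PCNA, the sliding clamp of DNA polymerases, stood at 1.06 to 2.28 UMIs per 10000 over the 11 hashed samples (median 1.64) in members, against 0.0991 to 0.297 in comparison cells. MCM5, a helicase subunit, stood at 0.183 to 0.749 (median 0.330) against 0.0132 to 0.0765. TYMS, which makes thymidylate, stood at 0.578 to 1.97 (median 0.910) against 0.0161 to 0.172. These values describe the choice and support nothing.

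Outside the rule, the list furthest above the comparison cells was origin licensing and firing. Its 17 genes summed to 2.35 to 5.15 UMIs per 10000 in members (median 4.46) and 0.361 to 1.04 in comparison cells (median 0.738), with no overlap, a fold of 6.03 (5.59 to 6.52). Of its 6 tested genes, 6 were called higher. CDC6, the loader of the MCM helicase, stood at 0.469 to 1.22 (median 0.862) against 0.0361 to 0.145, higher in 11 of 11 hashed samples with a fold of 10.0. ORC6, an origin recognition subunit, stood at 0.282 to 0.991 against 0.0150 to 0.106, a fold of 11.1. GMNN, which encodes geminin, the inhibitor that blocks relicensing through CDT1, stood at 0.183 to 0.851 against 0.0403 to 0.182, a fold of 5.70. Loader and inhibitor were thus both high in the same pools of cells. CDT1 had a fold of 7.03 and ranges that overlapped, since it was at 0 in the lowest hashed sample. The helicase activator GINS2 stood at 0.0826 to 1.00 against 0.0260 to 0.0801, a fold of 8.52. DBF4, the activating partner of the CDC7 kinase, had the smallest fold, 1.98, with overlapping ranges. CDC45 (fold 16.2, from 26 UMIs in members) and MCM10 (15.4, from 38 UMIs) lay below the filter.

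Replication fork genes summed to 7.67 to 14.6 UMIs per 10000 in members and 3.71 to 5.44 in comparison cells, with no overlap and a fold of 2.26 (2.16 to 2.36). Of 13 tested, 9 were called higher and 0 lower, out of 29 listed. FEN1, the nuclease that trims Okazaki fragments, stood at 0.469 to 1.25 (median 0.896) against 0.0901 to 0.264 (median 0.172), a fold of 5.51. PCLAF, a PCNA partner, had a fold of 12.8, and its members ranged from 0.0913 to 2.12, so that the lowest hashed sample met the highest comparison value of 0.0962. CLSPN, which links the fork to checkpoint signalling, stood at 0.106 to 0.665 against 0.00601 to 0.0801, a fold of 12.4. The single-strand binding subunit RPA3 had a fold of 2.00, and the polymerase subunits POLD2 (1.41) and POLE3 (1.32) stayed under the call. Another polymerase delta subunit, POLD3, stood at 0.319 to 0.998 (median 0.453) against 0.135 to 0.212, with no overlap and a fold of 2.84. Polymerase subunits thus differed among themselves. Below the filter, the catalytic subunits POLD1 (3.90, from 22 UMIs) and POLE (3.44, from 20 UMIs) and the primase PRIM1 (8.09, from 26 UMIs) are given by value only.

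Nucleotide supply was closer to the comparison cells as a list, at 16.6 to 26.8 UMIs per 10000 against 10.0 to 14.3, with no overlap and a fold of 1.59 (1.54 to 1.64). Of 17 tested, 12 were called higher and 0 lower. TK1, the thymidine salvage kinase, stood at 0.0680 to 2.53 (median 0.665) against 0.0231 to 0.0941, a fold of 9.62 with ranges that overlapped at the lower end. RRM1, the large subunit of ribonucleotide reductase, stood at 0.233 to 0.832 against 0.0385 to 0.108, a fold of 6.07. DUT, which keeps uracil out of DNA, stood at 1.55 to 5.07 against 0.997 to 1.39, a fold of 2.27. MTHFD1, a folate enzyme, had a fold of 2.42. The purine enzymes ATIC (1.09), ADSL (1.08), IMPDH2 (1.09) and GART (1.14) stayed close to 1, whereas PAICS (1.54) and GMPS (1.70), also of purine synthesis, passed. DCTPP1, which cleaves surplus deoxynucleotides, was at 1.68. NME1 had the highest level of the list in comparison cells, 4.55 UMIs per 10000 with DUT next at 1.18, so NME1 weighed most in the sum. Its fold was 1.36, short of the call.

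Genes of chromatin assembly summed to 13.2 to 21.2 UMIs per 10000 against 6.82 to 9.37, with no overlap and a fold of 2.14 (2.07 to 2.21). Of 11 tested, 10 were called higher. ATAD2, a chromatin ATPase, had a fold of 9.20. HELLS, a chromatin remodeller of methylated DNA, stood at 0.248 to 1.22 against 0.0545 to 0.193, a fold of 5.62. DNMT1, which copies DNA methylation to the new strand, stood at 0.282 to 1.55 (median 1.11) against 0.265 to 0.529, a fold of 3.10. UHRF1, its recruiter, had a fold of 9.73 below the filter. The histone chaperone NASP stood at 1.5 to 3.93 against 0.767 to 1.39, a fold of 2.28, and the histone variant gene H2AFZ at 3.38 to 7.17 against 1.98 to 3.02, a fold of 1.99. SLBP, which binds the stem-loop at the end of histone mRNAs, stood at 0.563 to 1.98 (median 1.45) against 0.261 to 0.736, a fold of 2.81.

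As a list, replication histone genes were close to the comparison cells, though single genes went both ways and the value moved with the weighting of cells. Their sum was 1.17 to 4.70 UMIs per 10000 (median 2.64) in members and 1.92 to 3.29 (median 2.94) in comparison cells, with full overlap and a fold of 1.00 (0.923 to 1.09), higher in 4 of 11 hashed samples. The fold was 1.36 for cells chosen after thinning and 1.28 with each cell weighted equally. Of 8 tested, 2 were called higher and 1 lower. HIST1H4C, a histone H4 gene, stood at 0.330 to 1.46 (median 0.682) against 0.203 to 0.555, a fold of 1.93. HIST1H1E, a linker histone gene, had a fold of 1.73 and was at 1.13, below the call, when members were limited to under 5 G2/M UMIs. HIST1H2AC was lower, at 0 to 0.661 against 0.283 to 0.687 with a fold of 0.578, lower in 11 of 11, and HIST1H1C stood at 0.699, short of the call. HIST1H1C had the highest level of the list in comparison cells, 0.998 UMIs per 10000, so it weighed most in the sum. Below the filter, HIST1H1B (9.61, from 31 UMIs in members), HIST1H1D (3.37, from 14 UMIs) and HIST1H3B (7.63, from 8 UMIs) had folds above 1. They were higher in 6, 4 and 3 of 11 hashed samples. Most replication histone mRNAs end in a stem-loop without the poly(A) tail that 3′ libraries prime on, and near-identical copies share reads, so single histone values are uncertain.

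Genes of checkpoint signalling and repair were next to licensing in size. The list summed to 3.19 to 8.30 UMIs per 10000 against 1.31 to 2.28, with no overlap and a fold of 3.98 (3.75 to 4.22), and 7 of 10 tested genes were called higher. MSH6, a mismatch recognition subunit, stood at 0.188 to 1.93 (median 1.19) against 0.2 to 0.525 (median 0.370), a fold of 3.45 in 10 of 11 hashed samples. USP1, which removes ubiquitin from PCNA and FANCD2, stood at 0.282 to 1.90 against 0.314 to 0.753, a fold of 3.37. BRCA1, of homologous recombination, stood at 0.163 to 0.816 against 0.0130 to 0.0925, a fold of 15.6, and its partner BARD1 had a fold of 6.69. The checkpoint kinase gene CHEK1 stood at 0.148 to 0.499 against 0.0192 to 0.0911, a fold of 7.17, while the kinase upstream of it, ATR, was at 1.14. WEE1, which restrains entry to mitosis, had a fold of 5.04 with overlapping ranges.

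Among G1/S regulators, the sum stood at 8.45 to 21.8 UMIs per 10000 (median 15.6) against 8.45 to 13.6 (median 10.3), overlapping, with a fold of 1.5 and higher in 10 of 11 hashed samples. Of 9 tested, 4 were called higher. CDCA7, an E2F and MYC target, had a fold of 4.13, and E2F3 stood at 0.25 to 0.639 against 0.147 to 0.244, a fold of 1.88. MYC stood at 0.152 to 3.66 against 0.361 to 2.11, a fold of 1.61, and was at 1.42 without HTO2+HTO6, below the call. CCND1, a D-type cyclin, stood at 4.04 to 14.3 (median 9.08) against 5.47 to 9.53 (median 6.68), a fold of 1.38. The E-type cyclin genes CCNE1 (5.76) and CCNE2 (18.9), the activator E2F1 (8.04) and the phosphatase CDC25A (15.2) were below the level filter. Kinase genes CDK4 (1.41) and CDK6 (0.876) and the retinoblastoma gene RB1 (1.22) were not called.

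Brakes on the cycle stood lower as a sum. Their sum was 1.83 to 5.81 UMIs per 10000 (median 3.93) in members and 2.98 to 7.81 (median 5.42) in comparison cells, a fold of 0.757 (0.705 to 0.812), lower in 10 of 11 hashed samples. Only CDKN1C, a CDK inhibitor gene, was called among 8 tested, with a fold of 0.480 from 11 UMIs in members, and the call was lost without HTO2+HTO5 (0.539) or HTO3+HTO8 (0.558). CDKN1A, which encodes p21, stood at 0 to 1.22 (median 0.286) against 0.145 to 1.35 (median 0.505), a fold of 0.713. BTG1, an antiproliferative gene, stood at 0.248 to 4.6 against 0.802 to 5.81, a fold of 0.686. At 3.33 UMIs per 10000 in comparison cells, with CDKN1A next at 0.741, BTG1 weighed most in the sum. GADD45A was at 1.07, TOB1 at 0.933 and GADD45B at 0.908. Within their own hashed sample, 88 of the 136 members with a pair lay below the median comparison cell for the summed brakes, so the list was shifted and not shut off.

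**Figure D3:**
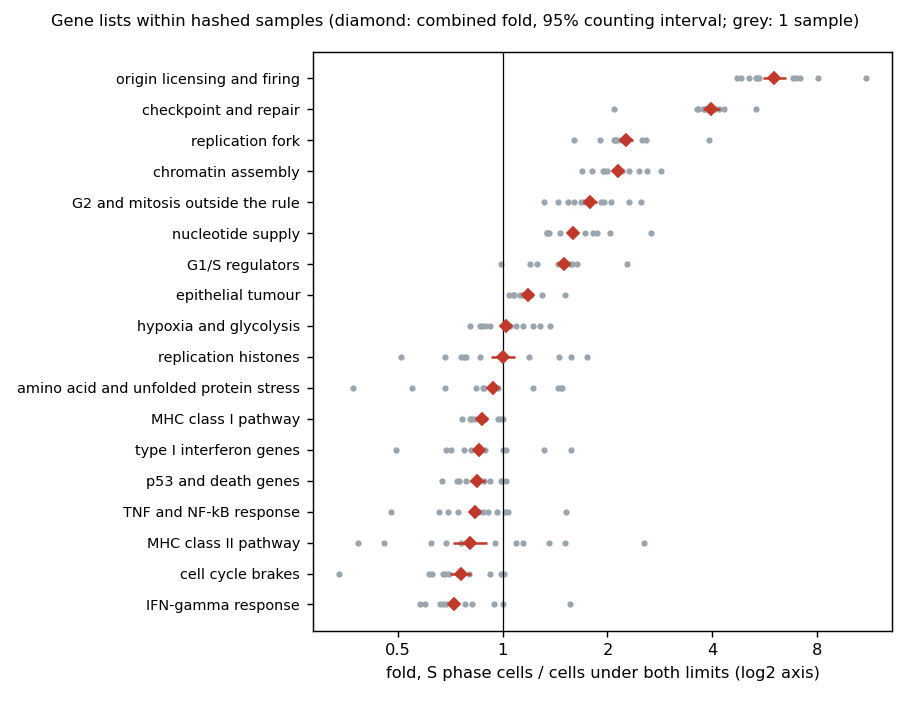
Fold of each list's summed UMIs in S phase cells over cells under both limits (x axis, log2), combined over hashed samples (diamonds, 95% counting intervals) and in each of the 11 hashed samples with at least 5 members (grey points). Licensing, checkpoint, fork, chromatin and nucleotide lists lie above 1 in every hashed sample, replication histones straddle 1, and cytokine response lists and brakes lie mostly below it.

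The 12 largest folds among higher calls with a mean of at least 0.2 were FEN1, MSH6, USP1, DNMT1, SLBP, TMPO, DNAJC9, MTHFD1, CKS2, NASP, DUT and EXOSC9, of which TMPO, DNAJC9 and EXOSC9 are in none of the lists. TMPO, a nuclear lamina protein, stood at 0 to 1.17 UMIs per 10000 (median 0.726) against 0.148 to 0.399, a fold of 2.76. DNAJC9, a histone chaperone with a J domain, stood at 0.330 to 0.893 against 0.161 to 0.325, a fold of 2.51 with no overlap. EXOSC9, an RNA exosome subunit, stood at 0.375 to 0.862 against 0.246 to 0.402, a fold of 2.19. The 12 largest lower calls were CX3CL1, PLPP3, CXCL9, LTB, GDF15, VCAM1, ATF3, ATP2B4, FST, NEURL3, IGFL2-AS1 and PNRC1. Of these, ATP2B4, a plasma membrane calcium pump, stood at 0 to 0.204 against 0.219 to 0.379, with no overlap and a fold of 0.453. PLPP3, a lipid phosphatase, had a fold of 0.341 and FST, the activin binder follistatin, 0.455, both with overlapping ranges.

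Cytokine response genes were lower in S phase cells within most hashed samples, by less than they differed between hashed samples. The IFN-gamma response list stood at 5.10 to 256 UMIs per 10000 in members (median 9.40) and 6.02 to 322 in comparison cells (median 14.1), a fold of 0.725 (0.709 to 0.742), lower in 9 of 11. In HTO2+HTO7 it was 256 in 5 members against 314, and in HTO3+HTO6 it was 221 in 7 members against 322. These members held 2728 and 2709 UMIs of the list, far more than the members of any other hashed sample. The combined fold and its narrow interval thus rest mostly on them, and the interval leaves out the spread between cells. The list was higher in HTO4+HTO7, at 9.40 in 7 members against 6.02, and near equal in HTO2+HTO8, at 6.36 in 8 members against 6.34. Of 21 tested genes 0 were called higher and 5 lower, CXCL9, CXCL11, GBP2, GBP3 and GBP4. With all cells pooled into a single ratio in place of the hashed samples, the fold was 0.364. This value also takes in the differences between hashed samples and the cells without a clear pair.

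CXCL10, a chemokine for CXCR3 on T cells, stood at 76.5 in members and 98.1 in comparison cells of HTO2+HTO7, and at 68.7 and 98.8 in HTO3+HTO6. In the other 9 hashed samples members held 0 to 0.333. Its fold was 0.679. IRF1, the transcription factor at the head of this response, stood at 0.319 to 29.7 (median 1.97) against 0.793 to 41.1 (median 3.43), a fold of 0.679, lower in 11 of 11. GBP4, a guanylate-binding protein, had a fold of 0.649, also lower in 11 of 11, and at 0.668 without HTO3+HTO9 was just short of the call. CXCL11 had a fold of 0.628, lower in 11 of 11, and was at 0.757 without HTO3+HTO6, short of the call. Medians over hashed samples were 0.0227 against 0.242 for GBP4 and 0 against 0.0925 for CXCL11. Their direction in most hashed samples thus rests on values near 0. CXCL9, whose gene was at 0 in the median member sample, had a fold of 0.354 from 24 UMIs, but in the 31 members left by a 10% mitochondrial limit its fold was 1.48. GBP1, another guanylate-binding protein, was at 0.752 and higher in 5 of 11, so the response genes were not lower in the same hashed samples.

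Single cells overlapped broadly. For the summed IFN-gamma list, 85 of 136 members lay below the median comparison cell of their own hashed sample, and the median member stood at the 41.3 percentile. The 7 members of HTO3+HTO6 ran from 96.9 to 450 UMIs per 10000 with a median of 161, and 6 of them were below the comparison median of 326. The 5 members of HTO2+HTO7 ran from 68.3 to 371 with a median of 266 against 320, and 4 of them were below it. The lowest of these members, at 68.3 and 96.9, still stood above the 17.5 that comparison cells held on average in HTO2+HTO6.

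The TNF and NF-kB list stood at 9.67 to 130 UMIs per 10000 in members (median 66.0) and 12.3 to 140 in comparison cells (median 99.3), a fold of 0.834 (0.818 to 0.850), lower in 8 of 11. Of 27 tested genes 0 were called higher and 2 lower. LTB, which encodes lymphotoxin beta, stood at 0 to 1.46 (median 0.375) against 0.0264 to 3.61 (median 1.94), a fold of 0.360. CX3CL1, the membrane-bound chemokine fractalkine, was at 0.228 from 5 UMIs in members. SOD2, the mitochondrial superoxide dismutase, stood at 0.744 to 20.5 (median 6.21) against 1.4 to 27.2 (median 15.4), a fold of 0.698, short of the call. The NF-kB inhibitor NFKBIA was at 0.852 (0.810 to 0.897), lower in 8 of 11 and short of the call. The survival gene BIRC3 (0.949) and CXCL8 (0.954) were near the comparison cells, with intervals that include 1. VCAM1, an adhesion molecule for leukocytes outside the list, stood at 0 to 1.06 (median 0.106) against 0.0132 to 1.69 (median 0.460), a fold of 0.392, lower in 11 of 11. With all cells pooled, the list was at 0.617.

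**Figure D4:**
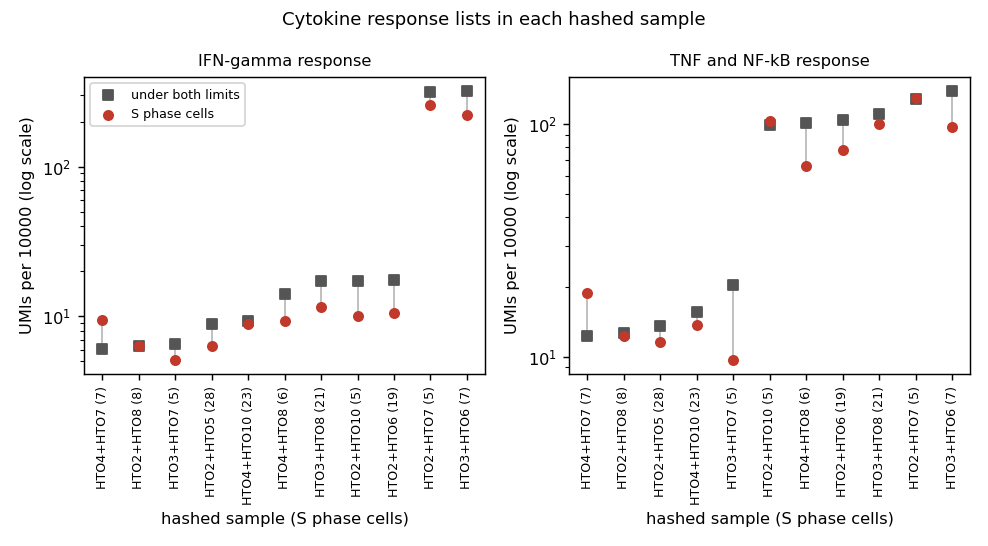
Summed IFN-gamma response genes (left) and TNF and NF-kB genes (right) in UMIs per 10000 (log y axis) in S phase cells (circles) and cells under both limits (squares) of the 11 hashed samples with at least 5 members, ordered by the squares, with the number of S phase cells in brackets. The gap between circle and square in a hashed sample is small beside the gap between hashed samples, and the circle lies clearly above the square in both panels for HTO4+HTO7 (9.40 against 6.02, and 18.7 against 12.3).

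Antigen presentation was slightly lower. The MHC class I list stood at 42.6 to 126 UMIs per 10000 against 56.0 to 154, a fold of 0.869 (0.856 to 0.883), lower in 10 of 11. B2M, the light chain of class I molecules, stood at 17.5 to 53.2 against 23.9 to 64.4, a fold of 0.867, lower in 11 of 11. Only the peptide trimmer ERAP2 was called among 17 tested, at 0.391 from 7 UMIs. The MHC class II list had a fold of 0.806 and no call among 6 tested, lower in 6 of 11, and was at 0.515 for cells chosen after thinning and 0.535 with all cells pooled. Type I interferon genes had a fold of 0.856 with 0 higher and 5 lower of 22 tested. The tested genes ran from IFIT1 at 1.19 to RSAD2 at 0.473. The list's direction turned to 1.03 in the 31 members under the 10% mitochondrial limit.

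Death and stress genes were close to the comparison cells or lower. The p53 and death list had a fold of 0.846, lower in 10 of 11 hashed samples, with 3 of 15 tested called lower. GDF15, a stress-induced secreted factor, stood at 0 to 0.425 UMIs per 10000 (median 0.0832) against 0.0312 to 0.579 (median 0.218), a fold of 0.388 that was 1.34 under the 10% mitochondrial limit. BCL2L1, the survival factor BCL-XL, was at 1.28. The amino acid and unfolded protein stress list had a fold of 0.938, with 3 of 14 called lower and 1 higher. ATF3, a stress transcription factor, stood at 0 to 0.657 against 0.0595 to 0.721, a fold of 0.434, and DDIT3, which encodes CHOP, had a fold of 0.589 and was at 0.719 without HTO2+HTO5, short of the call. The hypoxia and glycolysis list was at 1.02. Mitochondrial and ribosomal protein genes were at 0.974 and 0.971.

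Tumour epithelial genes were modestly higher, with a list fold of 1.18 (1.17 to 1.20), above 1 in 11 of 11 hashed samples. KRT18, a simple epithelial keratin, stood at 16.9 to 44.3 UMIs per 10000 (median 34.7) against 16.8 to 35.2 (median 25.6), a fold of 1.28. KRT8, its partner, had a fold of 1.22, and EPCAM was at 1.05. CLDN4, a tight junction claudin, went the other way, at 0.282 to 1.06 (median 0.653) against 0.301 to 2.09 (median 1.22), a fold of 0.592, lower in 11 of 11.

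Members also differed among themselves with their G2/M UMIs (plot of list levels by G2/M UMIs). The 106 members with 0 to 2, the 31 with 3 to 5 and the 19 with 6 to 9 had similar median depths of 16465, 16767 and 16310 UMIs. Their median S phase sums were 11, 15 and 16 UMIs, so the 2 sums that chose the cells rose together. The licensing and firing list stood at 3.75, 4.41 and 7.39 UMIs per 10000 in order of G2/M UMIs. It was 6.82 in cells over both limits and 3.27 in cells over the G2/M limit only. By S phase sum, the list stood at 3.03 in members with 8 to 11 UMIs, 5.03 with 12 to 19 and 6.17 with 20 or more. The part of each sum in these levels was not tested. CDC6 stood at 0.692, 0.801 and 1.54, above the 0.786 in cells over both limits. CCNE2, a cyclin of the G1/S transition, stood at 0.138, 0.146 and 0.523, beside 0.350 in cells over both limits. UNG, the uracil glycosylase, stood at 0.144, 0.164 and 0.523, and at 0.141 in cells over both limits. For these 3 genes, the cells that were over both limits stood below the 19 members with 6 to 9 G2/M UMIs by value only. Counts of single genes in those 19 members are small, and the order was not tested.

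Other genes were higher still in the cells over both limits. RRM2, the small subunit of ribonucleotide reductase and a rule gene, stood at 0.0775, 0.364 and 0.981 UMIs per 10000 in the 3 classes and at 2.88 in cells over both limits. TK1 stood at 0.160, 0.911 and 1.60, then 2.53, and PCLAF at 0.243, 1.09 and 2.16, then 2.27. Replication histones stood at 2.28, 3.10 and 5.53, then 26.5 in cells over both limits. HIST1H1B, a linker histone gene, was at 0.00553 in members with 0 to 2 G2/M UMIs, 0.237 and 0.654 in the next classes, and 5.84 in cells over both limits. The list's fold of 1.00 against the comparison cells thus averages members below and above them.

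Some genes were highest in the members with the fewest G2/M UMIs. MYC stood at 1.78 UMIs per 10000 in members with 0 to 2 G2/M UMIs, 0.911 in those with 3 to 5 and 0.981 in those with 6 to 9, beside 0.915 in the comparison cells and 0.648 in cells over both limits. CCND1 stood at 10.3, 7.6 and 8.90, beside 6.43 and 4.66. KRT18 stood at 37.4, 30 and 30.4, beside 24.1 and 21.5. CDKN1A was lowest in the first class, at 0.232, then 0.583 and 0.622, beside 0.750 in the comparison cells and 1.12 in cells over both limits. These class values pool hashed samples in different proportions, and the classes of 31 and 19 cells are small.

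**Figure D5:**
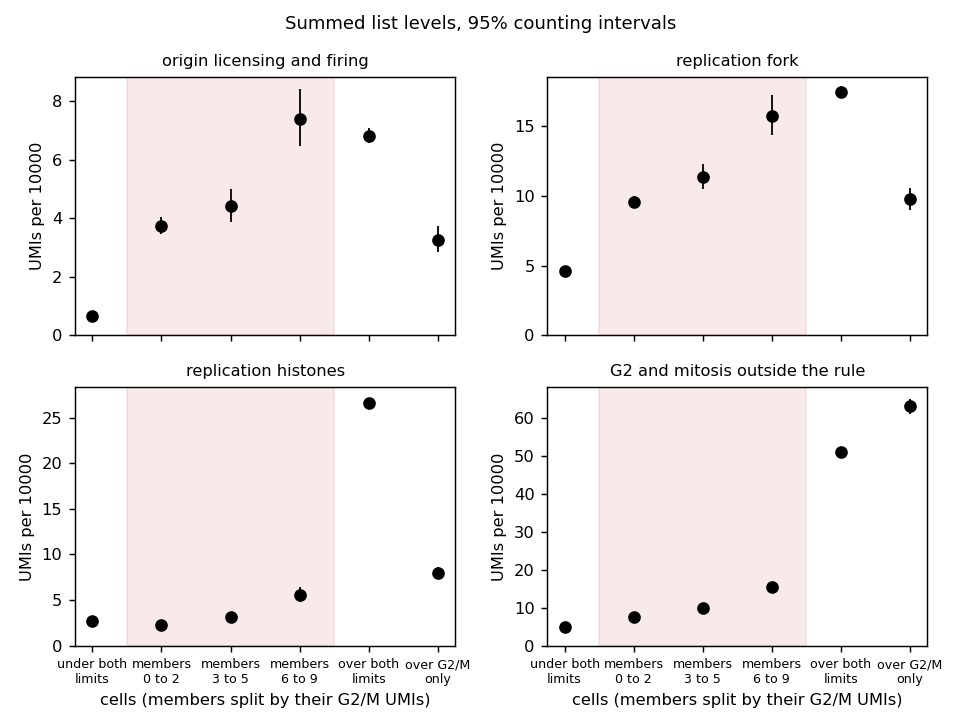
Summed UMIs per 10000 (y axis) of 4 lists in cells under both limits, members split by their G2/M UMIs (shaded), cells over both limits and cells over the G2/M limit only, with 95% counting intervals. Licensing is at 7.39 (6.46 to 8.42) in members with 6 to 9 G2/M UMIs, an interval that overlaps that of cells over both limits (6.82, 6.55 to 7.08). Replication histones are highest in cells over both limits (26.5) and stand at 7.92 in cells over the G2/M limit only. G2/M genes go from 7.50 to 15.4 across the members.

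Against the 221 cells over the G2/M limit, 9592 genes were tested within hashed samples, and 744 (7.76%) were called higher and 978 (10.2%) lower in S phase cells. The G2 and mitosis list outside the rule had a fold of 0.155, with 33 of 33 genes lower, as the limit itself fixes. Against the comparison cells the same list was at 1.78 (1.70 to 1.87), above 1 in 11 of 11 hashed samples, with 8 of 9 tested called higher. CKS2, a CDK subunit, stood at 0.213 to 1.5 UMIs per 10000 (median 0.567) against 0.171 to 0.440, a fold of 2.36. SMC4, a condensin subunit, had a fold of 2.07. CKS1B, at 1.52, was just past the call and below it in several alternatives. S phase cells thus lay between the comparison cells and the cells over the limit for these genes.

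Replication histones gave the widest gap between S phase cells and cells over the limit among the S phase lists, with a fold of 0.107, 16 of 19 tested genes lower and 1, HIST1H2BD, higher (2.08, interval 1.23 to 3.53). HIST1H4C was at 0.105 and HIST1H1B at 0.0269. Licensing and firing was at 0.643 with 11 of 16 lower, fork genes at 0.634 with 14 of 28 lower, and nucleotide supply at 0.764 with 6 of 18 lower and 1 higher. Among the genes higher in S phase cells than in cells over the limit, MSH6 was at 2.36, higher in 10 of 11 hashed samples, MYC at 2.72 in 10 of 11, CCND1 at 2.05 in 11 of 11, and KRT18 and KRT8 at 1.59 and 1.62 in 10 of 11. For TNF and NF-kB genes the fold was 1.23, with 5 of 26 higher and 2 lower, and for the IFN-gamma list 1.11, with 2 of 20 higher and 1 lower. Both lists were thus lower in S phase cells than in cells under both limits and higher than in cells over the G2/M limit, within hashed samples.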

How the data were processed

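Per the file headers and labels, the deposited matrix holds unnormalized UMI counts for 36601 human genes and 10 hashtags from 10x Genomics 3′ sequencing of RNA and of hashtags. Cell Ranger appears as 5.0.1 in the file header and as 2.1.1 in the submitters' processing notes, which name GRCh38. A cell was placed by its top 2 hashtags if the second had 10 or more counts and 3 or more times as many as the next one, and pairs with 30 or more cells were kept as hashed samples (3144 cells). Doublets within a hashed sample were not sought. The kept S phase cells held 2662031 UMIs in all. Levels are summed counts per 10000 UMIs. Folds are Mantel-Haenszel rate ratios over hashed samples with Greenland-Robins 95% intervals, which cover counting error only. Where a gene had 0 counts, 3 counts were used as its upper limit. The script was tested on simulated counts. Genes named are the 12 largest folds in each direction with a mean of at least 0.2, and members of 24 lists with the highest levels or the largest or smallest folds. Alternatives changed the limits, the thinning, the strata, the level filter and the hashed samples used. The members and lists were chosen with earlier results of these data known. Python 3.11.15, numpy 2.4.6, scipy 1.17.1, pandas 2.3.3 and matplotlib 3.10.9 were used.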

Additional observations from a re-analysis of the deposited data

Results flagged for a closer look

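Among the 1731 barcodes left out for few genes or a mitochondrial share above 20%, 18 (1.04%, exact binomial interval 0.617 to 1.64) met both gene limits of the rule, a signal in data that no comparison used. Their median depth was 12242 UMIs and their median mitochondrial share 23.5%, beside a median depth of 4507 UMIs in all barcodes left out.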

How the results depend on the processing

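Raising or lowering the S phase limit moved the share of members to 2.18% (at least 12 UMIs) and 6.90% (at least 6), and choosing cells after thinning gave 3.70%. Calls numbered 387 lower with a single pooled ratio, 1342 higher with no minimum level, 126 higher and 95 lower with a minimum of 0.2, and 110 and 74 with a fold of at least 2. A 10% mitochondrial limit left 31 members and gave 4.34 for licensing, 1.77 for the fork, 1.74 for chromatin assembly and 2.92 for checkpoint genes, and turned type I interferon genes to 1.03, p53 genes to 1.00, mitochondrial genes to 1.10, CXCL9 to 1.48, GDF15 to 1.34, ISG20 to 1.11, BBC3 to 1.12, ERAP2 to 1.16 and VLDLR to 0.996. A single pooled ratio gave 0.364 for the IFN-gamma list, 0.762 for MHC class I and 0.617 for NF-kB genes. The stress list turned to 1.11 at 12 UMIs and 1.03 after thinning, mitochondrial genes to 1.01 after thinning and RSAD2 to 1.30 at 6 UMIs. The cause was not tested.
Leaving out each hashed sample gave 479 to 526 higher and 206 to 257 lower calls, 5.75 to 6.38 for licensing, 2.18 to 2.30 for the fork, 0.682 to 0.750 for the IFN-gamma list and 0.942 to 1.07 for replication histones. Under the 10% mitochondrial limit, 163 of 457 higher and 32 of 180 lower calls were shared with the reported ones. The alternatives without the deepest cells, without mitochondrial counts, with equal weight per cell and centred on the median gene, were chosen after seeing the data. For the folds, S phase and comparison cells were paired within hashed samples, while levels by G2/M class and near the limits pooled the hashed samples. The single pooled ratio is the fit without that pairing, and it also takes in the cells without a clear pair. By the labels' replicate numbers, no pairing could be made, since no hashtag pair carries one.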
